A study of Homo sapiens with 9 samples.

Results

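After 1 hr of treatment with the small molecule PF8503 (PF-06378503), ribosome-protected reads of 36 transcripts fell in Huh-7 cells out of 9093 that could be tested (0.396%), and 0 rose (0%), by limma without pairing at an adjusted p under 0.05. The counted region of some transcripts was chosen from these same libraries, starting where treated cells lost reads, which favours decreases over rises. With libraries paired by the rank of their size factor, a pairing chosen after the data were seen, 127 fell and 23 rose. The comparison was over all 9157 transcripts listed in the authors' comparison of PF8503 with vehicle, and each was described by its log2 ratio of mean normalized counts, PF8503 over DMSO. Huh-7 is an established human hepatocellular carcinoma line. The cells received 1.5 µM PF8503 or 0.5% DMSO, the solvent, for 1 hr, with 3 biological replicates per condition, 1 library each, so that 6 of the 9 libraries of the series entered. The other 3 libraries received the related compound PF846 at 1.5 µM and shared the DMSO libraries as their control. As a model this is 1 cell line at 1 dose and 1 time, and the labels place the DMSO libraries in lanes 1, 1 and 5 and the PF8503 libraries in lanes 4, 4 and 8 of the sequencer, so that lane and treatment cannot be told apart.

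PF8503 and PF846 act on the human ribosome and slow the elongation of a small subset of nascent chains. Where a chain slows, fewer ribosomes reach the codons that follow. Ribosome profiling reads this directly, because it sequences the mRNA fragments that ribosomes shield from a nuclease. A change of such reads can also come from a change in the amount of the mRNA, and the 2 cannot be told apart without matched RNA libraries, which were not analysed here. Most secreted proteins and some membrane proteins carry a hydrophobic stretch near the N-terminus that directs the ribosome to the endoplasmic reticulum (ER), and liver-derived cells such as Huh-7 make many of them.

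The tables hold means over 3 libraries and no value of a single library. These means are written with 15 significant digits and are sums of whole reads divided by 3 fixed size factors. For 9093 transcripts only 1 combination of whole reads, among those with similar reads in the 3 libraries, gave each written mean. Rivals with very unequal reads were not counted, so the recovered reads, and the spread and SE taken from them, rest partly on replicates being alike. The libraries recovered in this way are called DMSO a, b and c and PF8503 a, b and c in ascending order of size factor, and they could not be tied to the replicate numbers of the labels. They held 6862266, 9167502 and 11062597 reads over these transcripts with DMSO and 6032930, 9003009 and 10623314 with PF8503. The same DMSO libraries, recovered independently from the comparison with PF846, had identical reads for 8631 of 8766 transcripts. The remaining 64 transcripts, which are among the most heavily read and include AFP, ALB, APOB and AMBP, have the authors' means only and no test.

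The authors counted reads downstream of the codon with the largest deficit of reads where that deficit was large, and otherwise over nearly the whole coding sequence. A shortened region starts where the treated cells lost reads, so a value from it is lower by construction. It shows in the data as fewer vehicle reads than in the comparison with PF846, which held for 93 transcripts, while 42 had more and 8631 had the same. The 93 transcripts with fewer reads had a median log2 ratio of -0.58, and all 93 were below 0. Transcripts with the same reads had a median of 0.01. The same number of vehicle reads does not exclude that both comparisons used the same shortened region. More vehicle reads show only that the region counted for PF846 was the shorter of the 2. This holds for MDK, PCBP1, PLA2G15 and DAD1, with 100.9%, 100.9%, 100.6% and 129.7% of those reads. Their regions with PF8503 may be shortened too.

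All 14 hepatocyte markers looked for, AFP (alpha-fetoprotein) the most read of them, were listed, with summed means of 543508 normalized counts with DMSO and 517586 with PF8503. Of 20 markers of blood, endothelial, fibroblast, neural and muscle cells, 3 were listed, LYZ, CD68 and PECAM1. Their summed means were 8829 with DMSO and 9030 with PF8503 and their log2 ratios 0.01, 0.18 and 0.19. LYZ, a lysozyme, held most of these reads, and the leukocyte marker PTPRC, the globin HBB and the collagens COL1A1 and COL3A1 were not listed.

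The start of the coding sequence is shown for the transcripts with the 5 largest decreases that are reported here, for PCBP2 as the paralog of PCBP1, and for GDI2 as a heavily read cytosolic protein that fell. The 120 bases code for the first 40 residues, and capitals mark the 12 codons of the most hydrophobic window within residues 2 to 35. The sequences are the spliced canonical transcripts of GENCODE version 44 on GRCh38.
MDK: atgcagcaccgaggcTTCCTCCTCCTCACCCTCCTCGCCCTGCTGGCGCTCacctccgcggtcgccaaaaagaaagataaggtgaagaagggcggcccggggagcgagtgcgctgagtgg
TM4SF4: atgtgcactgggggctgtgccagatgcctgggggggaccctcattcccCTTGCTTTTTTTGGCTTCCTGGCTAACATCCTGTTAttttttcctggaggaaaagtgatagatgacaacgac
PLA2G15: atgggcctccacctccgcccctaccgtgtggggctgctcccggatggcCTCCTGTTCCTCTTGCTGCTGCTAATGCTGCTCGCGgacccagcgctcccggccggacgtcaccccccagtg
POGLUT1: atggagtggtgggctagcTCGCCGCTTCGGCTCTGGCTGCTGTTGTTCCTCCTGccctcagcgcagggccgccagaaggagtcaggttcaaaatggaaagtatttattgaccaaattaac
PCBP1: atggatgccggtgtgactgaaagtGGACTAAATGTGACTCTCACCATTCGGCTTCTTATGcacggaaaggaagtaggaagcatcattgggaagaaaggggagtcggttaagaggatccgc
PCBP2: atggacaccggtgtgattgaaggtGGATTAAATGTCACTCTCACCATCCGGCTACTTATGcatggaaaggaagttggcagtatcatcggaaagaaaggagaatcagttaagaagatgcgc
GDI2: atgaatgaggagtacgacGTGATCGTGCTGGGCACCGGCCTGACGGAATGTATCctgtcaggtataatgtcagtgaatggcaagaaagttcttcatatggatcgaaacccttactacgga
MDK lies on chr11:46380756-46383837 on the plus strand, TM4SF4 on chr3:149474697-149503394 (plus), PLA2G15 on chr16:68245304-68261058 (plus) and POGLUT1 on chr3:119468963-119494708 (plus). PCBP1, a gene of 1 exon, lies on chr2:70087477-70089203 (plus), and PCBP2, with 15 exons, on chr12:53452102-53481162 (plus). GDI2 lies on chr10:5765223-5842132 (minus). The 120 bases of PCBP1 and PCBP2 are the same at 101 positions. On the scale of Kyte and Doolittle, where higher is more hydrophobic, the marked window averages 3.01 in MDK, 2.32 in TM4SF4, 3.39 in PLA2G15 and 1.8 in POGLUT1. Both PCBP transcripts reach 1.33 and GDI2 reaches 1.82.

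Across the translatome the shift was narrow. The median log2 ratio of means was 0.01, the quartiles were -0.06 and 0.09, and the central 95% of transcripts lay between -0.32 and 0.28. At or below -0.5 stood 99 of 9157 transcripts (1.08%), and at or above 0.5 stood 22 (0.24%). At a limit of 0.2, these included, 580 transcripts (6.33%) were at or below -0.2 and 602 (6.57%) at or above 0.2. The lower limit falls between TP53I13 at -0.50 and MFAP2 at -0.49, and the upper between FRAT2 at 0.50 and ITGAE at 0.49.

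**Figure D1:**
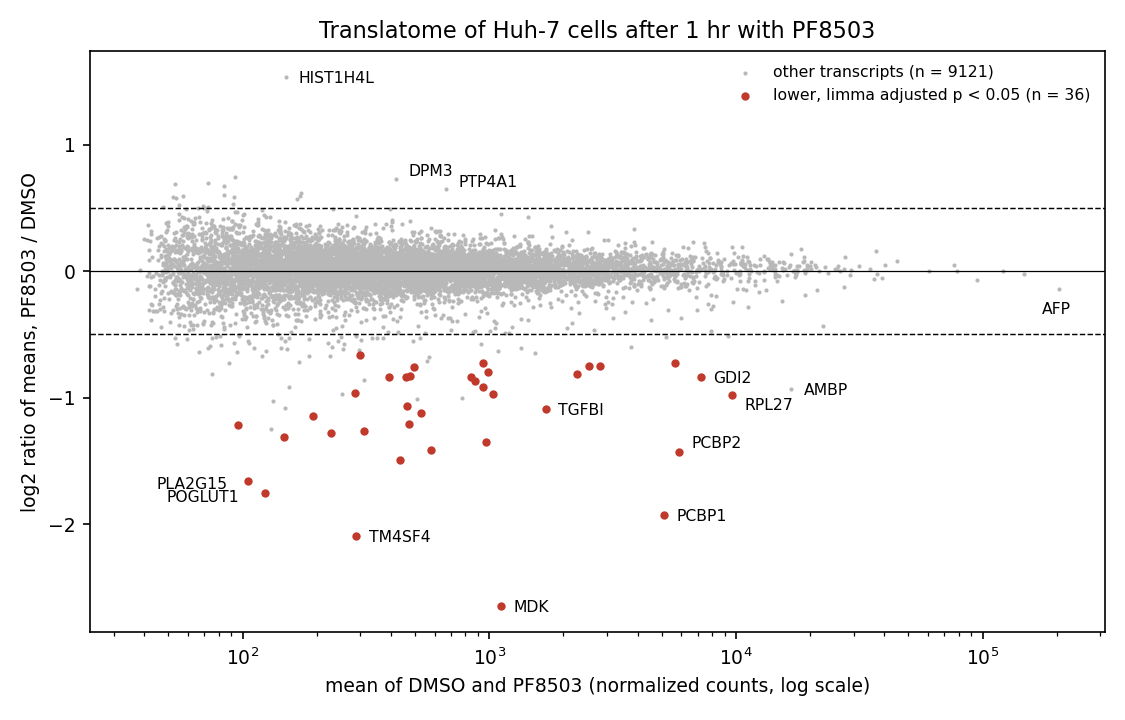
Log2 ratio of mean normalized counts, PF8503 over DMSO, of all 9157 transcripts against the mean of both conditions (log scale). Red points are the 36 transcripts lower at a limma adjusted p under 0.05, the dashed lines stand at -0.5 and 0.5, and the grey points include the 64 transcripts without a test. The red points reach from MDK at -2.65 to TOB2 at -0.66 and lie in each of 10 classes of mean but the lowest, and no transcript at or above 0.5 has a mean above 774.

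For the test, limma was fitted to log2 of the normalized reads plus 1 in 3 PF8503 and 3 DMSO libraries over all 9093 transcripts. With the Benjamini-Hochberg adjusted p under 0.05, 36 transcripts fell and 0 rose, and with voom weights 35 and 0. At an unadjusted p under 0.05, 206 were lower and 71 higher, and the lowest adjusted p of any rise was 0.115. The estimated log2 changes of the 36 ran from -2.66 to -0.66 with a median of -1.02. Every PF8503 library lay below every DMSO library in 363 transcripts (3.99%) and above in 271 (2.98%), and all 36 calls are among the 363. Of the 36, 24 had fewer vehicle reads than in the comparison with PF846, 5 had more and 7 had the same. Shortened regions were chosen from these same libraries, so their p-values are too low by an unknown amount, and no region was chosen for a gain. With only transcripts of the same vehicle reads entered, 6 fell and 0 rose. Leaving out DMSO a lowered the count to 23 and leaving out DMSO b to 21, and 20 of the 36 kept an adjusted p under 0.05 whichever library was left out. When libraries were paired by the rank of their size factor, a choice made after their deviations were seen to correlate, 127 transcripts were lower and 23 higher.

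The largest decrease was in MDK, the heparin-binding growth factor midkine. It had 1668, 1868 and 2217 normalized reads in the DMSO libraries and 251, 282 and 386 in the PF8503 libraries. All 3 treated libraries were far below the controls, and in both conditions library c was the highest. The fitted log2 change was -2.66 ± 0.16 (SE, limma adjusted p = 6.78e-05). TM4SF4, a 4-pass membrane protein of the tetraspan type, had 429, 447 and 528 reads with DMSO and 101, 101 and 127 with PF8503, a log2 change of -2.09 ± 0.14 (limma adjusted p = 7.28e-05). Its groups were equally well separated, and its vehicle reads were 81.9% of those in the comparison with PF846.

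PCBP1 and PCBP2, poly(C)-binding proteins that control mRNA stability and translation, are paralogs and both fell by more than 1 on the log2 scale. PCBP1 had 7945, 7767 and 8485 normalized reads with DMSO and 1817, 2012 and 2554 with PF8503. PCBP2 had 8364, 8337 and 9024 with DMSO and 2935, 3078 and 3529 with PF8503. In both, the spread within a condition was small beside the gap between conditions, and library c was the highest of each. The log2 changes were -1.94 ± 0.13 (SE, limma adjusted p = 6.78e-05) for PCBP1 and -1.43 ± 0.10 (limma adjusted p = 7.28e-05) for PCBP2. Reads were kept only where they mapped to a single position, and sharing of reads between these similar coding sequences was not tested. PCBP2 was counted over the same reads in both comparisons.

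POGLUT1, an ER enzyme that adds glucose to Notch and other EGF repeats, had 186, 189.8 and 193 reads with DMSO and 63.6, 56.4 and 48.4 with PF8503 (log2 change -1.74 ± 0.16, SE, limma adjusted p = 0.000787). PLA2G15, a lysosomal phospholipase, had 143, 151 and 188 reads with DMSO and 47.7, 40.4 and 64.5 with PF8503 (-1.65 ± 0.21, limma adjusted p = 0.00475). These are the least read of the largest decreases, and their groups still did not overlap. PRKAR2A, a regulatory subunit of protein kinase A, had means of 845 normalized counts with DMSO and 317 with PF8503, and a log2 change of -1.43 ± 0.14 (limma adjusted p = 0.000939). DAD1, a subunit of the oligosaccharyltransferase, had 1270.45, 1406 and 1509.5 reads with DMSO and 400.3, 594 and 647 with PF8503. Its PF8503 library a was lowest, and without it DAD1 remained called, as did MDK, TM4SF4, both PCBP transcripts, POGLUT1, PLA2G15 and PRKAR2A.

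The other named decreases were smaller and many came from shortened regions. CTBS, which degrades chitobiose in the lysosome, fell by 1.33 in the fit, C14orf1, an ER scaffold of sterol synthesis, fell by 1.29, and ACSF2, a mitochondrial acyl-CoA synthetase, fell by 1.26. CTBS kept the call in 2 of 6 fits with 1 library left out. RAB3GAP1, a regulator of Rab GTPases, fell by 1.20 ± 0.12 (SE, limma adjusted p = 0.000939) and DNAJB9, an ER co-chaperone, fell by 1.13 ± 0.15 (limma adjusted p = 0.00573).

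**Figure D2:**
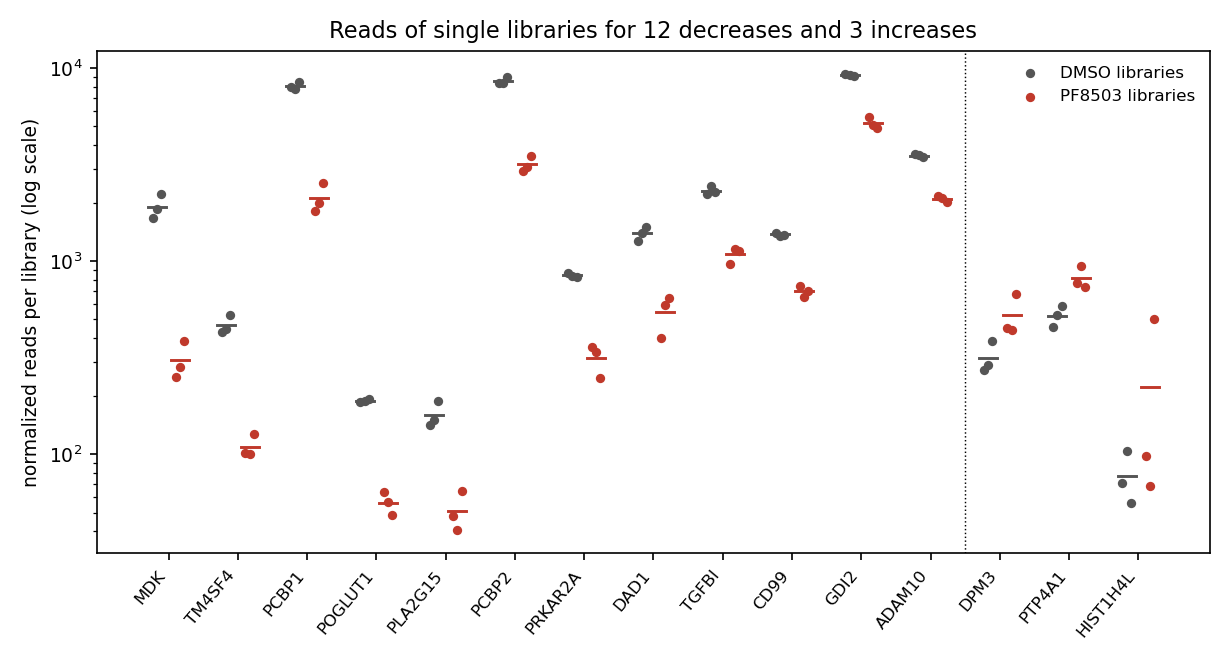
Normalized reads per library (log scale) of 12 decreases and 3 increases, with the 3 DMSO libraries in grey, the 3 PF8503 libraries in red and bars at the means, libraries a, b and c from left to right. The groups are apart in all 12 decreases and in DPM3 and PTP4A1, while the mean of HIST1H4L with PF8503 rests on library c.

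Among 22 transcripts at or above 0.5, none passed the test. PTP4A1, a small membrane-bound phosphatase, had 455, 529 and 585 normalized reads with DMSO and 775, 946 and 735 with PF8503. DPM3, an anchor of the dolichol-phosphate-mannose synthase, had 273, 289.8 and 385 with DMSO and 454, 442 and 677 with PF8503. In both, every treated library was above every control, with log2 changes of 0.64 ± 0.13 (SE, limma adjusted p = 0.115) and 0.72 ± 0.19 (limma adjusted p = 0.321). ROMO1, a small protein of the inner mitochondrial membrane, had a log2 change of 0.45 ± 0.10 (limma adjusted p = 0.131) and groups that did not overlap. The largest ratio of means, 1.53 for the histone gene HIST1H4L, came from PF8503 library c alone, with 502 reads against 98.3 and 68.6 in the other two and 70.7, 104.7 and 55.7 with DMSO. SAC3D1, RNASEH2C, RNF26, SPTSSA, VOPP1 and PAPD7 had log2 ratios of 0.61, 0.59, 0.57, 0.49, 0.49 and 0.48. These 6 had groups that did not overlap and adjusted p between 0.293 and 1.

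The most heavily read transcripts stood near 0. The log2 ratio of the authors' means was -0.14 for AFP, -0.02 for ALB (albumin), 0.00 for EEF1A1, which delivers tRNA to the ribosome, -0.07 for APOB, the main lipoprotein scaffold, and 0.00 for GAPDH, a glycolytic enzyme. No replicate error is available for these 5. A further heavily read transcript, AMBP, precursor of a plasma protease inhibitor, stood apart with means of 21992 and 11530 normalized counts and a log2 ratio of -0.93, from a region with 97.1% of the vehicle reads of the other comparison.

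Weak shifts were more frequent among transcripts with few reads. In 10 classes of equal size by mean, the median log2 ratio stayed between 0.01 and 0.02. The central 95% narrowed from -0.43 to 0.41 in the lowest class, with means of 37.2 to 92.4 normalized counts, to -0.28 to 0.17 in the highest, with means above 2312. The median SE of the fit narrowed likewise, from 0.207 to 0.106. Shares at or above 0.2 went from 17.6% in the lowest class to 1.20% in the highest, and at or below -0.2 from 14.3% to 4.15%. Strong decreases did not thin out in this way, with 13 transcripts at or below -0.5 in the lowest class (1.42%) and 11 in the highest (1.20%). Strong rises numbered 14 in the lowest class and 0 in each of classes 8, 9 and 10. The test made 0 calls in the lowest class and 7 in the highest.

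**Figure D3:**
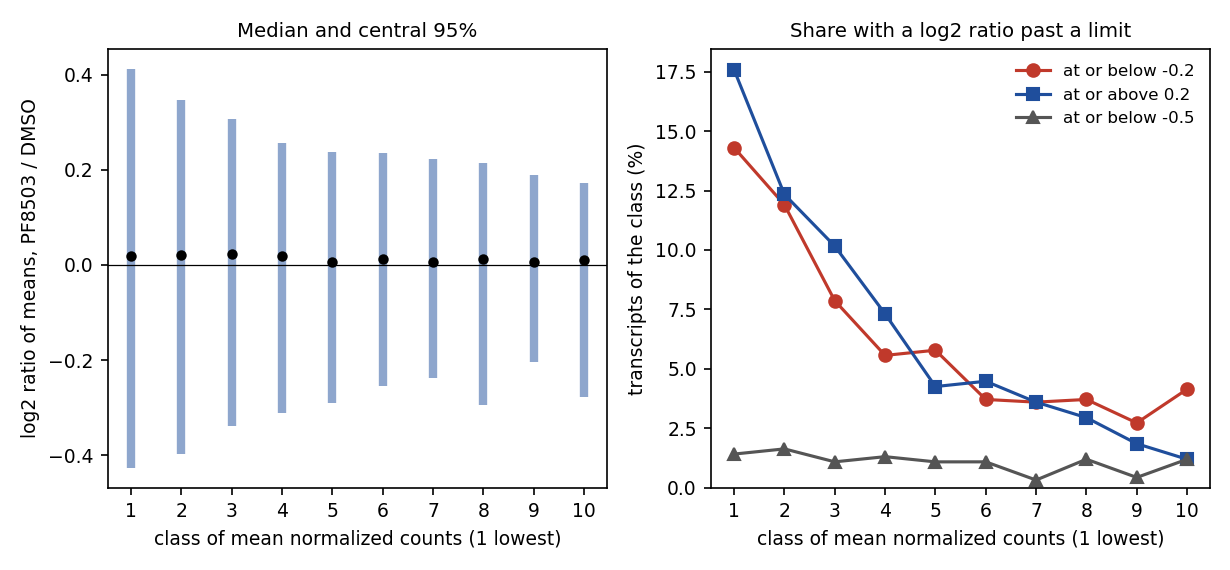
Log2 ratios in 10 classes of mean normalized counts, from the lowest (1) to the highest (10). On the left, points are medians and bars the central 95%, and on the right, lines give the percent of each class at or below -0.2, at or above 0.2 and at or below -0.5. Weak shifts were far rarer in the upper classes than in the lowest in both directions, and the share at or below -0.5 stayed between 0.328% and 1.64%.

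Proteins with a hydrophobic N-terminus were found more often among the decreases. A coding sequence of at least 35 codons was matched for 9105 nuclear transcripts, and 1145 of these (12.6%) had a window of 12 residues averaging at least 2 on the hydropathy scale within residues 2 to 35. Among transcripts at or below -0.5, 36 of 97 (37.1%) had such a segment, and among the limma calls 17 of 36 (47.2%), including MDK, TM4SF4, PLA2G15, TGFBI and CD99. At or above 0.5 it was 5 of 22 (22.7%). Put the other way, 3.14% of transcripts with the segment and 0.766% of those without stood at or below -0.5, so nearly all proteins with such an N-terminus stayed above that limit. The median log2 ratio was 0.04 with the segment and 0.01 without, and the SD was 0.24 and 0.15. At or below -0.2 stood 9.78% with the segment and 5.74% without, and at or above 0.2 stood 9.43% and 6.19%. Where the same vehicle reads were counted in both comparisons, 9 of 1039 (0.866%) with the segment and 22 of 7545 (0.292%) without were at or below -0.5. These shares describe the transcripts and were not tested.

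The calls also held transcripts without a segment. The 19 called transcripts without it include PCBP1, PCBP2, PRKAR2A, RAB3GAP1, GDI2, RPL27 and RPS15A, which code for cytosolic or nuclear proteins. PDE3B, a membrane-bound phosphodiesterase with later hydrophobic windows, fell by 0.96 ± 0.13 (SE, limma adjusted p = 0.00932) with the lowest N-terminal value of the calls, -0.58, and kept the call in 2 of 6 fits with 1 library left out. Later hydrophobic windows mark likely membrane spans after residue 40. At or below -0.5 stood 0.965% of transcripts with 0 such windows, 1.32% with 1, 1.43% with 2 to 6 and 1.28% with more than 6. Over the same vehicle reads in both comparisons, these shares were 0.314%, 0.547%, 0.417% and 0.450%. They were not tested, nor was their difference from those of the N-terminal segment. Among 624 transcripts with both the segment and a later window the share was 3.04%, and among 1745 with a later window alone 0.745%. By length, 34 of 2277 coding sequences of up to 297 codons (1.49%) and 16 of 2276 of 765 codons or more (0.703%) were at or below -0.5. Where the same vehicle reads were counted in both comparisons, the order turned, with 5 of 2138 (0.234%) and 7 of 2166 (0.323%).

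**Figure D4:**
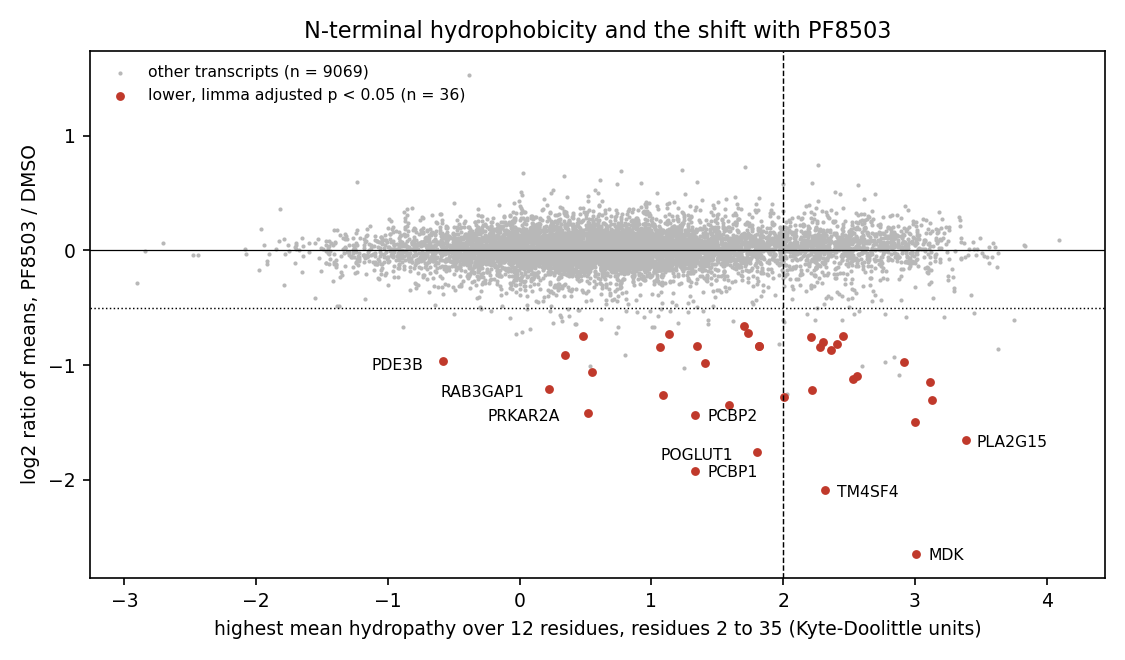
Log2 ratio of means, PF8503 over DMSO, of 9105 transcripts against the highest mean hydropathy of 12 residues within residues 2 to 35 (Kyte-Doolittle units). Red points are the 36 transcripts lower at a limma adjusted p under 0.05, and the dashed line marks the value of 2 that defines a segment. Red points lie on both sides, with MDK, TM4SF4 and PLA2G15 to the right and PCBP1, PCBP2 and PRKAR2A to the left, and most transcripts on the right stay near 0.

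Functional lists put these members among their neighbours. The 46 lists hold 1431 of the transcripts (15.6%). Each median below can be read beside the 0.01 of all transcripts, and each count beside the shares above of all transcripts past the same limit. The lists were chosen with earlier results of these data known, so a share above that of all transcripts does not show enrichment. For the proteins of translation itself, the 60S ribosomal list had a median of 0.00 over 49 members, with 2 at or below -0.5, RPL27 and RPL13. RPL27 had 12897, 14317 and 11285 normalized reads with DMSO and 5702, 7356 and 6431 with PF8503, a change of -0.98 ± 0.12 (SE, limma adjusted p = 0.00504), while RPL13 had a log2 ratio of -0.51 and limma adjusted p of 0.154. In both, every treated library was below every control.

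The 40S list (31 members) had a median of 0.02. RPS15A fell by 0.74 ± 0.12 (SE, limma adjusted p = 0.0222), from 6635, 7187 and 7303 reads to 3560, 4799 and 4404, over the same reads as in the other comparison, and kept the call in 3 of 6 fits with 1 library left out. RPS9 had a ratio of 0.68 on means of 64.7 and 103 only, with overlapping libraries. Of 71 mitochondrial ribosomal proteins, MRPS12, MRPS31 and MRPL36 stood at -0.67, -0.67 and -0.54, all from shortened regions and none called, around a median of -0.01.

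Initiation factors (45 members) had a median of -0.03 and none past 0.5 in size, EIF5 being the lowest at -0.29. Of 10 elongation factors, EEF1B2, a nucleotide exchange factor for EEF1A1, was lowest at -0.52 and was not called. Factors that rescue stalled ribosomes and mark their chains (33 members) had a median of 0.02 and extremes of -0.17 for N4BP2 and 0.23 for ZNF622. Aminoacyl-tRNA synthetases (20 members) lay between -0.08 and 0.11, the CCT chaperonin (8) between -0.06 and 0.05, cytosolic heat shock proteins (17) between -0.26 and 0.18, and proteasome subunits (32) between -0.19 and 0.15. Genes of the integrated stress response (25), only some of which are translated more when initiation is restrained, had a median of 0.03, no member past 0.2 and no call. ATF4, their central transcription factor, had a log2 ratio of 0.01.

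In the ER entry machinery, SEC63 and SSR4 were called among 36 proteins of signal recognition, the translocon and the EMC insertase. SEC63, which recruits an ER chaperone to the translocon, fell by 0.84 ± 0.13 (SE, limma adjusted p = 0.0147), and SSR4, a subunit of the translocon-associated TRAP complex, fell by 0.83 ± 0.13 (limma adjusted p = 0.0183). With 1 library left out, SEC63 kept the call in 3 of 6 fits and SSR4 in 1 of 6, with limma adjusted p up to 0.0979 and 0.104. SEC61A1, the channel itself, had 5904, 5841 and 5936 normalized reads with DMSO and 4748, 4619 and 4922 with PF8503, a ratio of -0.31 with an limma adjusted p of 0.424. These values barely varied within a condition and did not overlap. In total 6 of the 36 were at or below -0.2 and 0 at or above, and the median was -0.02. The 11 subunits of the oligosaccharyltransferase, which attaches N-glycans, had a median of 0.04. DAD1 was the only member below -0.2, and the small subunit OST4 was at 0.39 with overlapping libraries.

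ER chaperones and genes of the unfolded protein response (38 members) had a median of 0.01 with 4 members at or below -0.5, all with fewer vehicle reads than in the other comparison. KDELR3, a receptor that returns proteins to the ER, fell by 1.22 ± 0.19 (SE, limma adjusted p = 0.017), DNAJB9 as above, and TMX2, a thioredoxin-related membrane protein, fell by 0.87 ± 0.10 (limma adjusted p = 0.00361). KDELR3 kept the call in 3 of 6 fits with 1 library left out. TXNDC5, a disulfide isomerase, had a ratio of -0.53 and was not called. HSPA5, the main ER chaperone, had a ratio of -0.19, and KDELR1, a paralog of KDELR3, had 0.17.

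Downstream in the pathway, 38 Rab and GDI proteins held 2 members at or below -0.5. GDI2, which extracts Rab GTPases from membranes, had 9374, 9236 and 9127 normalized reads with DMSO and 5599, 5077 and 4881 with PF8503, a change of -0.84 ± 0.09 (SE, limma adjusted p = 0.00252) over the same reads as in the other comparison. The list's median was -0.01, and its summed means had a log2 ratio of -0.17. Among 37 vesicle coats and tethers USO1, a Golgi tether, fell by 0.90 ± 0.13 (SE, limma adjusted p = 0.0112), and kept the call in 4 of 6 fits with 1 library left out. TRAPPC1 was the highest of this list at 0.26. ARF GTPases (16 members) lay between -0.14 and 0.18.

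**Figure D5:**
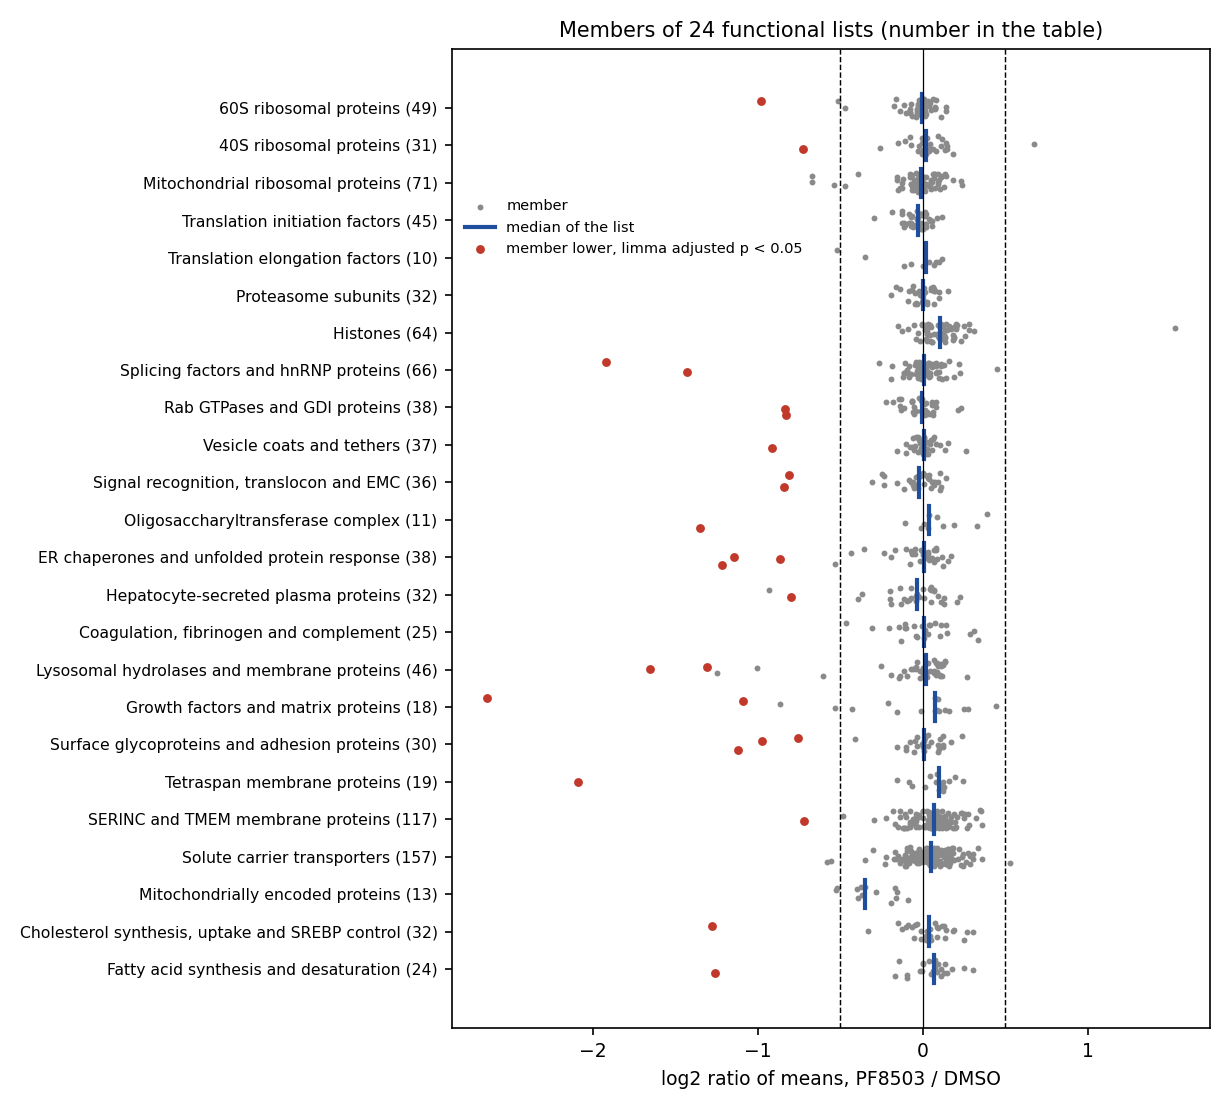
Log2 ratio of means of each member of 24 lists, with the number of members in the table in brackets, the median as a blue bar, the members lower at a limma adjusted p under 0.05 in red and dashed lines at -0.5 and 0.5. Medians stay near 0 except for the mitochondrially encoded proteins at -0.35, and red points stand far to the left of their lists.

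Plasma proteins secreted by hepatocytes (32 members) had a median of -0.04, with AMBP and APOH at or below -0.5. APOH, a phospholipid-binding plasma protein, fell by 0.79 ± 0.12 (SE, limma adjusted p = 0.0183), from means of 1249 to 719 normalized counts, and kept the call in 2 of 6 fits with 1 library left out. Apolipoproteins and their assembly factors (14 members, APOH among them) had a median of -0.06 and 6 members at or below -0.2 against 1 at or above. Over the 10 members with the same vehicle reads in both comparisons the median was -0.01. Library medians relative to the DMSO mean, over the 12 members with recovered libraries, were -0.03, 0.03 and -0.02 with DMSO. With PF8503 they were -0.18, -0.17 and -0.21, which did not overlap the DMSO values. These medians include 2 members from shortened regions and were not tested. TM6SF2, which loads lipid onto lipoproteins, was highest at 0.40 with overlapping libraries. Of 25 coagulation, fibrinogen and complement proteins none was past 0.5 in size. CFI, a complement protease, was lowest, with 3021, 3012 and 3210.1 reads with DMSO and 2338, 2122 and 2245 with PF8503, a ratio of -0.46 (limma adjusted p = 0.0768) and no overlap.

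Lysosomal hydrolases and membrane proteins (46 members) had a median of 0.02 and 5 members at or below -0.5, among them PLA2G15, CTBS, TPP1 and CTSA. TPP1, a peptidase, had a ratio of -1.01 and CTSA, a carboxypeptidase that protects other lysosomal enzymes, had -0.60, with adjusted p of 0.0871 and 0.0629. Both had groups that did not overlap. The reads of CTSA were the same in the other comparison, at 4391, 4293 and 4913 with DMSO and 2891, 2636 and 3427 with PF8503.

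Growth factors and matrix proteins (18 members) had a median of 0.07 and 4 members at or below -0.5, MDK, TGFBI, LTBP3 and VEGFA. TGFBI, an extracellular adhesion protein, had 2220.1, 2440.2 and 2273 reads with DMSO and 971, 1157 and 1128 with PF8503, a change of -1.09 ± 0.10 (SE, limma adjusted p = 0.000864), over the same reads as in the other comparison. LTBP3, which binds latent TGF-beta, had a ratio of -0.86 and VEGFA, an angiogenic factor, had -0.53, and neither was called. TGFB1 was highest at 0.45 with overlapping libraries. Among 10 ADAM sheddases and gamma-secretase proteins ADAM10, which cuts the ectodomains of surface proteins, fell by 0.75 ± 0.09 (SE, limma adjusted p = 0.00371), from 3608, 3530.3 and 3449.96 reads to 2174, 2127 and 2016. Its paralog ADAM9 had -0.05.

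At the cell surface, 3 of 30 glycoproteins and adhesion proteins fell. CD99, an adhesion glycoprotein, had 1404, 1353 and 1373 reads with DMSO and 744, 655 and 705 with PF8503, a change of -0.97 ± 0.10 (SE, limma adjusted p = 0.000939) and the same counted reads in both comparisons. PODXL2, a sialomucin, fell by 1.12 ± 0.14 (limma adjusted p = 0.00475) and MPZL1, a receptor-like glycoprotein, fell by 0.76 ± 0.10 (limma adjusted p = 0.00916), a call kept in 4 of 6 fits with 1 library left out. The list's median was 0.01. The other tetraspan proteins stayed close to their list's median of 0.10 (19 members), TM4SF4 being the only one at or below -0.2. Receptors for lipoproteins, transferrin and hormones (26 members) had a median of 0.07 and none past 0.5 in size. The lowest was TFRC, the transferrin receptor, at -0.30 with 8838, 8577 and 8824 reads with DMSO and 7473, 6909 and 6895 with PF8503, which did not overlap (limma adjusted p = 0.502).

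Lists of multi-pass membrane proteins were centred near 0. SERINC and TMEM proteins (117 members) had a median of 0.07, with 13 at or above 0.2 and 4 at or below -0.2. Solute carriers (157 members) had a median of 0.05, with 15 at or above 0.2 and 6 at or below -0.2. Library medians of the SERINC and TMEM list were -0.06, 0.00 and 0.03 with DMSO and -0.04, 0.04 and 0.13 with PF8503, and those of the solute carriers -0.05, -0.03 and 0.09 with DMSO and 0.00, -0.04 and 0.14 with PF8503. Taken without pairing, the conditions overlap in both lists, and library c was the highest of each condition. Against the DMSO library of the same rank of size factor, the SERINC and TMEM median was higher in each PF8503 library. The solute carrier median was higher in libraries a and c and lower in b. These differences within ranks were not tested. SERINC1, a multi-pass membrane protein with 9 later hydrophobic windows, was the only call among both, at -0.72 ± 0.11 (SE, limma adjusted p = 0.02), from a region with 51.7% of the vehicle reads of the other comparison, and it kept the call in 3 of 6 fits with 1 library left out. SLC13A5, the citrate transporter of liver, stood at -0.58, SLC10A7 at -0.55 and SLC6A8, the creatine transporter, at 0.53, none of them called.

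The 13 proteins encoded by mitochondrial DNA were the only list of more than 3 members with a median past 0.2 in size, at -0.35, with all 13 below 0, 8 at or below -0.2 and no call. Library medians relative to the DMSO mean were 0.29, -0.24 and -0.03 in the DMSO libraries and -0.71, -0.13 and -0.14 in the PF8503 libraries. Only PF8503 library a lay outside the DMSO range. MT-CO1, a subunit of cytochrome oxidase, had 4578, 2788 and 3372 reads with DMSO and 1624, 3496 and 3175 with PF8503. Nuclear-encoded subunits of the same chain had a median of -0.01 for complexes I and II (46 members) and 0.02 for complexes III, IV and V (40 members). Within them NDUFA1 was lowest at -0.39, and SDHD at 0.41 and USMG5 at 0.43 were highest, each with all treated libraries above all controls and adjusted p of 0.356 and 0.64.

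Metabolic lists were centred near 0 with single low members. Cholesterol synthesis, uptake and control (32 members) had a median of 0.04 and C14orf1 as its only member at or below -0.5. Fatty acid synthesis and desaturation (24 members) had a median of 0.07 with ACSF2 as its only such member and FASN, the fatty acid synthase, at 0.18. Hepatic oxidation and conjugation enzymes (49 members) had a median of 0.00 and MGST3, a membrane-bound glutathione transferase, lowest at -0.61. Among 18 nucleotide enzymes NME1, a nucleoside diphosphate kinase, had a ratio of -0.64 and no call. Glycolytic enzymes (13 members, median 0.07), hydroxysteroid dehydrogenases (8, median 0.01), cysteine and glutathione synthesis (13, median -0.04), iron proteins (15, median 0.03) and actins and tubulins (13, median 0.05) had none past 0.5 in size. FTL, the ferritin light chain, was the highest iron protein at 0.33, with 3434, 3360.2 and 3478 reads with DMSO and 4927, 4017 and 3993 with PF8503.

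In the nucleus, splicing factors and hnRNP proteins (66 members) had a median of 0.01 and 2 members at or below -0.5, both PCBP transcripts. Histones (64 members) had a median of 0.10, with 11 at or above 0.2 and 0 at or below -0.2. Their library medians were 0.05, 0.09 and -0.19 with DMSO and -0.07, 0.19 and 0.14 with PF8503, which overlap. Immediate-early and short-lived regulators (28 members) had a median of 0.07. TOB2, an antiproliferative regulator of mRNA decay, fell by 0.66 ± 0.11 (SE, limma adjusted p = 0.0367) and kept this call in 1 of 6 fits with 1 library left out, with adjusted p up to 0.366. IER5 was highest at 0.36 with 144, 154 and 188 reads with DMSO and 198, 179.5 and 248 with PF8503. PTP4A2, the other listed PTP4A phosphatase, had -0.12 beside the 0.65 of PTP4A1.

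Of the 99 transcripts at or below -0.5, 46 belong to a list, and of the 36 calls 28. Calls outside the lists and outside the largest decreases, named after their values were seen, were MAPRE1, a microtubule-end protein, PLEKHA5, a phosphoinositide-binding adaptor, HSPB11, a ciliary transport protein, and PDE3B. MAPRE1 fell by 0.75 ± 0.10 (SE, limma adjusted p = 0.00581), PLEKHA5 fell by 1.06 ± 0.15 (limma adjusted p = 0.00948) and HSPB11 fell by 0.84 ± 0.12 (limma adjusted p = 0.0115). With 1 library left out they kept the call in 5, 4 and 3 of 6 fits. MAPRE1, PLEKHA5 and HSPB11 came from regions with fewer vehicle reads than in the other comparison, and PDE3B from the same reads.

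PF846 was measured against the same DMSO libraries, so that the values of both compounds share their control and are given side by side only, as log2 ratios of means. MDK stood at -2.65 with PF8503 and -1.41 with PF846, PCBP1 at -1.92 and -1.15, PCBP2 at -1.43 and -0.86, and PLA2G15 at -1.66 and -1.45. TM4SF4 stood at -2.09 and -0.13, PRKAR2A at -1.42 and 0.00, and GDI2 at -0.83 and -0.03. RPL27 had -0.98 and -1.39, and USO1 had -0.91 and -0.90. The difference between the compounds was not tested, and the counted region differed for MDK, PCBP1, PLA2G15, TM4SF4, PRKAR2A, RPL27 and USO1.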

How the data were processed

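Ribosome-protected fragments were measured in Huh-7 cells with PF8503 and with DMSO. The authors lysed cells in cycloheximide, digested with RNase I, aligned reads with Bowtie to canonical coding transcripts (GENCODE version 24, GRCh38, hg38), and dropped reads that fit several positions. Counting began at DMax, the codon of the largest deficit, if its Z score reached 2, or else past the first 10 codons, and transcripts needed more than 30 counts. As deposited, each signal value is the authors' mean of read counts over DESeq size factors. Their columns of fold changes, log2 fold changes and p-values were not used. Versions of Bowtie and DESeq are not given in the sources used here, and columns of samples left unused number 0.

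Computed here were log2 ratios of the means, with no pseudocount, no filter and no test, and limits of 0.5 and 0.2. Whole reads per library were recovered by lattice reduction of the written digits, accepting 1 solution within 0.75 of the last digit. Only rivals with similar reads in the 3 libraries were counted against it. The recovery was tested on simulated data with replicates that were alike. limma 3.58.1 was fitted with a trend to log2 of the normalized reads plus 1, which understates changes of low transcripts, with p adjusted over all 9093. Intervals of counting error were not used, since reads carry no molecular identifiers. Libraries of the same rank of size factor deviated together from their condition means (r of 0.479, 0.508 and 0.667 over 8031 transcripts with a mean of at least 100), and the median SD between libraries on the log2 scale was 0.121 with DMSO and 0.168 with PF8503. Coding sequences of GENCODE version 44 were matched for 9118 of 9157 symbols (99.6%).

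Named were the 15 largest decreases and 10 largest increases among transcripts with a mean of at least 100, the 5 with the highest mean, and in each list the most read, lowest and highest members and those past 0.5 in size. Some of these results are left out of this text. The members and lists were chosen with earlier results of these data known. The alternatives were another limit (1), minimum means of 30, 100 and 300, centring, 5 counts added to both means, sums in place of medians, only transcripts with the same vehicle reads in both comparisons, and each library left out, with voom weights and a replicate block added after the data were seen.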

Additional observations from a re-analysis of the deposited data

How the results depend on the processing

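Counts of strong shifts depended on the limit and on the reads required. Lower transcripts numbered 23 at a limit of 1 in place of 0.5, 47 with a mean of at least 300, 33 with the same vehicle reads counted in both comparisons and 36 by limma. Higher transcripts numbered 1 at a limit of 1, 6 with a mean of at least 100, 2 with a mean of at least 300 and 0 by limma. The limma count of decreases ran from 21 to 45 with 1 library left out and was 35 with voom weights. It was 6 when only the 8577 tested transcripts with the same vehicle reads were entered, where 7 were called with all transcripts entered. In the leave-outs 16 of the 36 lost the call at least once, 15 of them without DMSO b, 14 without DMSO a and 10 without PF8503 a. They included HSPB11, CTBS, MPZL1, USO1, SEC63, SERINC1, SSR4, PDE3B, PLEKHA5, RPS15A, APOH, MAPRE1, KDELR3 and TOB2, with a largest adjusted p between 0.0558 and 0.366, and none changed direction. The recovered libraries carry no replicate number of the labels, so no block by those numbers was fitted. With a replicate block over libraries of the same rank of size factor, a pairing chosen after the data were seen, 127 transcripts were lower and 23 higher.

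Of 184 alternative values of list medians 175 moved by less than the spread between PF8503 libraries. The ratio of summed means gave -0.17 for Rab and GDI proteins, -0.0738 for ER chaperones, -0.22 for ADAM and gamma-secretase proteins, 0.0533 for cysteine and glutathione synthesis, -0.0266 for nucleotide enzymes, 0.41 for PTP4A phosphatases and -0.0705 for hepatocyte markers. Apolipoproteins had -0.0135 over the same vehicle reads, and ADAM proteins -0.0387 after centring. Below about 92.4 normalized counts the fit made no call, and for the 64 transcripts without recovered reads, all in the highest class of mean, no error is known.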

Other observations

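Further transcripts with low log2 ratios belong to none of the lists and are named here after their values were seen. NPPB, the B-type natriuretic peptide, had 133, 212 and 259.96 normalized reads in the DMSO libraries and 63.6, 113 and 109 with PF8503, which did not overlap (limma adjusted p = 0.319). RSL24D1, a ribosome assembly factor, had 1189.6, 1126 and 799 with DMSO and 457, 651 and 446 with PF8503 (limma adjusted p = 0.0508). BRF1, a subunit of an initiation factor of RNA polymerase III, had 172, 155 and 206 with DMSO and 99.7, 64.9 and 97.6 with PF8503 (limma adjusted p = 0.0684). Each came from a region with fewer vehicle reads than in the comparison with PF846. MKKS, a chaperonin-like protein, was counted over the same reads in both comparisons, with 194, 235 and 178 with DMSO and 106, 124 and 92.8 with PF8503 (limma adjusted p = 0.0524). All 4 were lower in each treated library than in each control, and none was called.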
